A study of Mus musculus with 24 samples.

Results

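The miR-200 family (mmu-miR-200a-3p, mmu-miR-200b-3p, mmu-miR-200c-3p, mmu-miR-141-3p and mmu-miR-429-3p) and 3 further miRNAs of epithelial and endocrine cells (mmu-miR-203-3p, mmu-miR-205-5p and mmu-miR-375-3p) were followed in extracellular vesicles (EVs) from mouse serum after tibia surgery. They were chosen by name as miRNAs known from epithelia, and all 8 were present among the 1966 mature miRNAs of the count table. Small RNA was sequenced in 24 libraries, 1 per mouse, with 6 mice in each of 4 groups. All mice were wild type C57BL/6 males aged 14 to 16 weeks. The S6h, S24h and S72h mice underwent an open tibia fracture that was fixed with an intramedullary pin under isoflurane and buprenorphine, and blood was taken 6, 24 or 72 h later. Control mice had no surgery and were injected with saline. Per the study's methods, controls were assigned to time points by batch of animals, and the Control mice are the C6h set. The C24-72h set, assigned to the later time points, was not analysed here. The paper reports that this set and C6h did not differ statistically. Mice of the S24h and S72h groups also received analgesia every day. In comparisons of S24h or S72h with Control or S6h, the time after surgery, the number of analgesic doses and any difference between batches of animals therefore cannot be told apart. In every comparison with Control, S6h included, the effects of surgery cannot be told apart from those of anaesthesia and analgesia. EVs were precipitated from serum with ExoQuick ULTRA, which can also bring down miRNAs bound to lipoproteins. In such a bulk preparation, fewer vesicles from a cell type and less of a miRNA in each vesicle cannot be told apart.

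The members of the miR-200 family are expressed together in epithelial cells, from separate transcripts of 2 gene clusters, and repress Zeb1 and Zeb2, transcription factors that drive the change from an epithelial to a mesenchymal state. In the skin, miR-203 restrains the renewal of keratinocyte progenitors through Trp63, and miR-205 is a miRNA of the basal layer of stratified epithelia. Islet cells of the pancreas and endocrine cells of the gut hold much miR-375, a regulator of insulin secretion. A mature miRNA finds its targets mainly through its seed, a short stretch near its 5′ end, so that members with an identical seed are expected to share most targets.

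The mature sequences are shown because the family falls into 2 seed groups whose levels are compared below, and because reads of its closest members differ at very few bases. RefSeq entries (GRCm38.p6) were matched for 7 of the 8 members, all but mmu-miR-375-3p. Sequences run 5′ to 3′, with the seed (bases 2 to 8) in capitals.
mmu-miR-200a-3p: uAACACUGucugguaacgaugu
mmu-miR-141-3p: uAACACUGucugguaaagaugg
mmu-miR-200b-3p: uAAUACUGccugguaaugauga
mmu-miR-200c-3p: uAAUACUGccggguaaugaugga
mmu-miR-429-3p: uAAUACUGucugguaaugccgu
mmu-miR-203-3p: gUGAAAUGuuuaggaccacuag
mmu-miR-205-5p: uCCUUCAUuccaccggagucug
The seed of miR-200a and miR-141 was carried by 2 matched mature miRNAs of the table, and that of miR-200b, miR-200c and miR-429 by 3, in both cases by members of the family alone. Counted from 1 at the 5′ end, the 2 seeds differed by the substitution C4U (miR-200a to miR-200b). Over 22 bases, miR-200a and miR-141 differed at 2 positions (C17A and U22G), and so did miR-200b and miR-200c (U11G and A22G). The other pairs of the family differed at 4 or 5 positions. How the authors' counting treated a read with a mismatch between such close members is not given in the sources used here, and levels of these pairs carry that uncertainty.

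The family is encoded at 2 places in the mouse genome (GRCm38, Gencode annotation). Mir200b (chr4:156055681-156055750), Mir200a (chr4:156054896-156054985) and Mir429 (chr4:156053905-156053987) lie within 1846 bp on the minus strand, inside introns of the protein-coding gene Ttll10. Mir429 also falls in an exon of the processed transcript Gm13648, which has introns at the other 2 hairpins. Mir200c (chr6:124718322-124718390) and Mir141 (chr6:124717914-124717985) lie within 477 bp on the minus strand, in an intron of the antisense transcript Gm15884 near Phb2. Mir141 also overlaps an exon of Gm29008 on the same strand. Mir205 (chr1:193507463-193507530, minus strand) lies in an exon of the long noncoding RNA 4631405K08Rik. Neither Mir203 (chr12:112130880-112130955, plus strand) nor Mir375 (chr1:74900658-74900721, minus strand) overlaps another annotated gene. The nearest protein-coding genes are Aspg, at 3321 bp, and Cfap65, at 1350 bp. Each seed group therefore has members at both places, with miR-141 on chromosome 6 sharing the seed of miR-200a on chromosome 4.

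Depth limited the miR-200 family more than the other members. Total counts ranged from 63956 to 263211 in the Control group, 102568 to 471801 in S6h, 66652 to 143856 in S24h and 65017 to 245013 in S72h. The S24h group had the lowest median total (75030) and S6h the highest (177468). Levels are given as CPM, the usual scaling of counts by the library total, so that 1 count corresponded to between 2.12 and 15.6 CPM. A count of 0 allows up to 3 counts, or 6.36 to 46.9 CPM depending on the library, and this limit covers counting error only. Because a read spans a whole mature miRNA, no scaling by length was applied.

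Averaged over the 24 libraries, miR-205-5p (1277 CPM) and miR-203-3p (1267 CPM) were the most abundant members, at ranks 73 and 75 of the 252 miRNAs that were tested. Their order was not the same in all groups: the mean of miR-203-3p was above that of miR-205-5p in Control (1957 against 1615 CPM) and S6h (1422 against 1116 CPM), and below it in S24h (891 against 1513 CPM) and S72h (797 against 862 CPM). Next came miR-375-3p with 512 CPM (rank 98). Within the family, miR-200a-3p averaged 150 CPM, miR-200b-3p 124 CPM and miR-200c-3p 85.0 CPM (ranks 146, 154 and 183). The lowest were miR-429-3p, at 27.3 CPM, and miR-141-3p, at 15.6 CPM. This order held in the group means of Control and S6h and changed later: in S24h miR-200a-3p (34.6 CPM) lay below miR-200b-3p (104 CPM) and miR-200c-3p (47.4 CPM), and in S72h these 3 were between 70.3 and 73.6 CPM. Likewise, miR-141-3p was below miR-429-3p in Control (3.49 against 57.2 CPM) and S6h (25.1 against 49.7 CPM), and above it in S24h (17.1 against 0 CPM) and S72h (16.7 against 2.14 CPM). Testing was limited to miRNAs that reached 10 CPM in 12 or more of the 24 libraries, and 6 of the 8 members passed. The remaining 2, miR-429-3p and miR-141-3p, each reached 10 CPM in 9 libraries. This filter can favour a member that is high in only some groups, so that counts over the 6 members are descriptions.

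**Figure D1:**
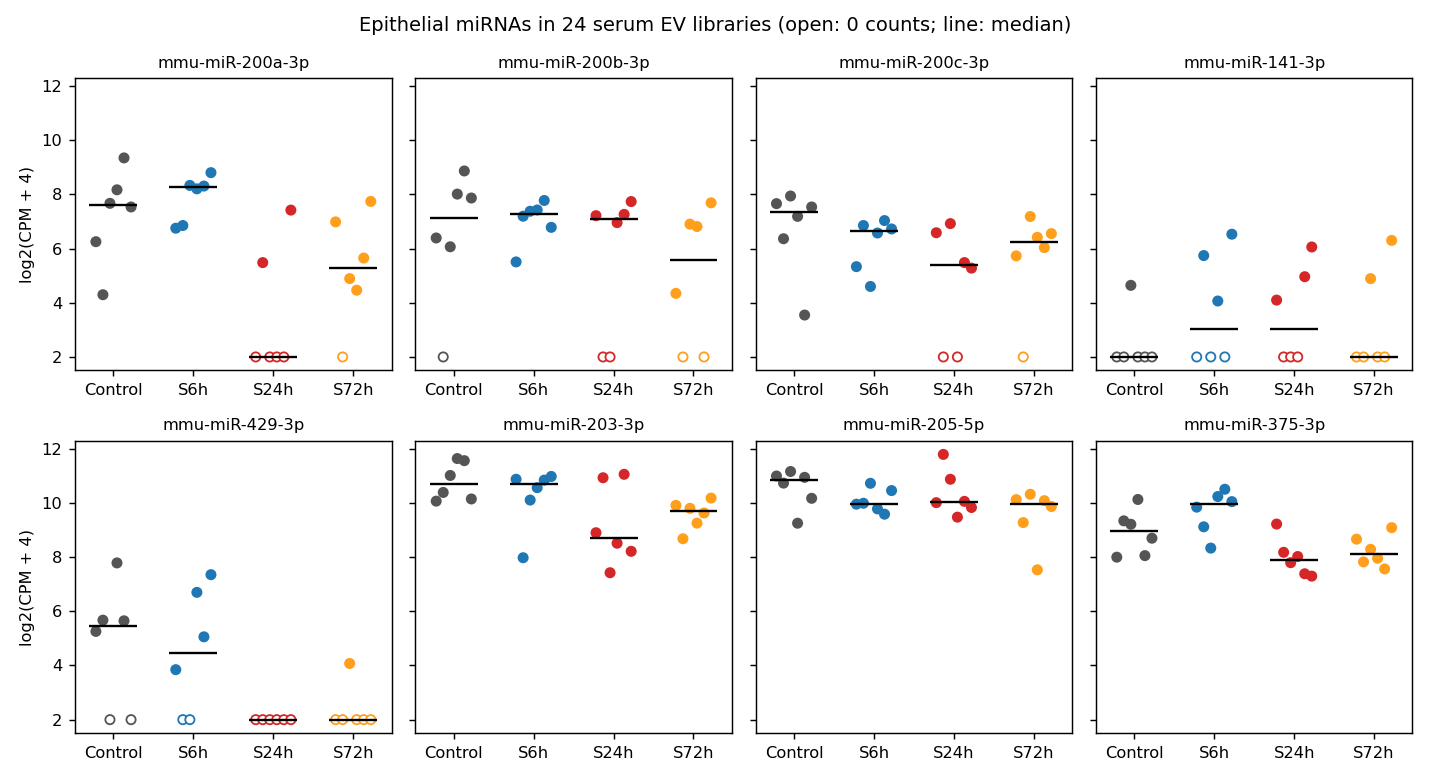
Level of each of the 8 miRNAs in the 24 libraries, as log2(CPM + 4), by group (Control, S6h, S24h and S72h, 6 mice each); points are single libraries, open points have 0 counts and lines are group medians. In S24h, miR-429-3p had 0 counts in all 6 libraries and miR-200a-3p in 4 of 6, while miR-203-3p, miR-205-5p and miR-375-3p had counts in every library.

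Summed over the 8 members, the level was 3269 to 6381 CPM in Control (median 4619), 2219 to 5344 CPM in S6h (median 4092), 1440 to 5786 CPM in S24h (median 2350) and 1236 to 3191 CPM in S72h (median 2401). All 6 S72h libraries lay below the lowest Control library in CPM, but after TMM scaling of the library sizes S72h replicate 1 (3282 CPM) exceeded Control replicate 6 (3117 CPM). The S24h libraries overlapped Control through replicates 2 and 5. At the median, the members took 0.462% of the counts of a Control library, 0.409% in S6h, 0.235% in S24h and 0.240% in S72h. Most of this sum came from miR-203-3p, miR-205-5p and miR-375-3p, and the miR-200 family contributed a median of 557 CPM in Control, 580 CPM in S6h, 168 CPM in S24h and 198 CPM in S72h. The groups overlapped for the family sum, since S24h libraries reached 473 CPM and S72h libraries 575 CPM while 1 Control library held 141 CPM. In S24h replicate 2, the highest library of its group, 3523 of the 5786 CPM were miR-205-5p.

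**Figure D2:**
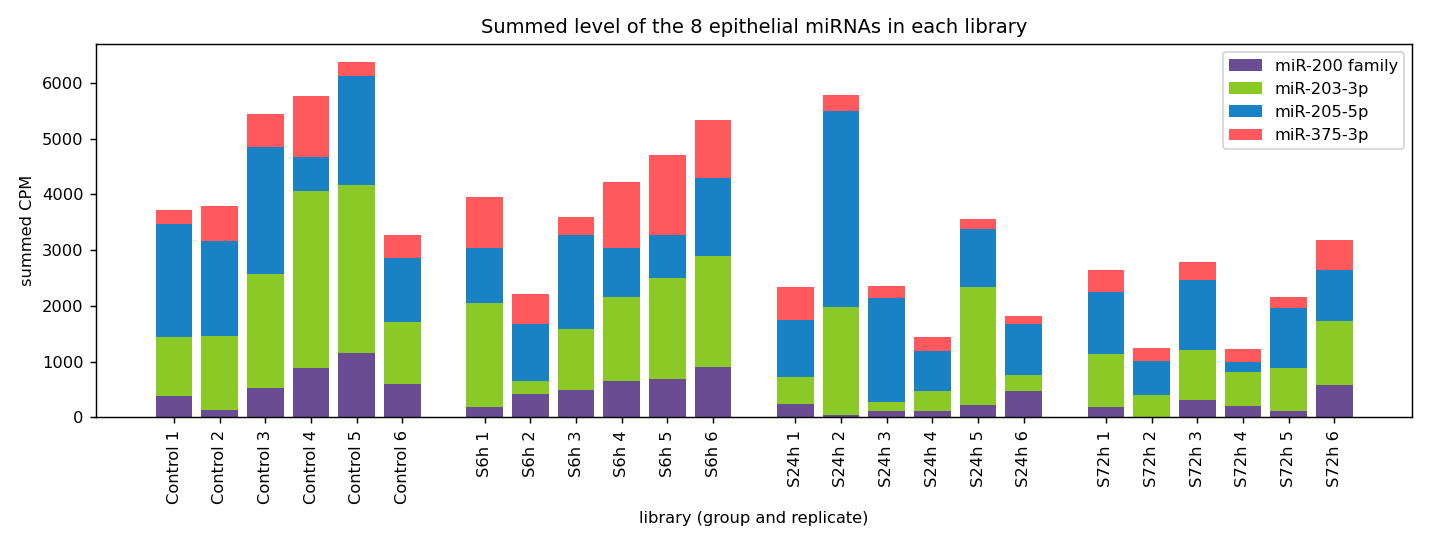
Summed CPM of the 8 miRNAs in each library, as bars starting at 0, stacked by the miR-200 family (5 members), miR-203-3p, miR-205-5p and miR-375-3p; libraries are ordered by group and replicate. The Control bars run from 3269 to 6381 CPM, and all S72h bars end at or below 3191 CPM, a separation that was lost after TMM scaling.

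Detection of the family differed between groups, and it is described here without a test. Each of the 12 Control and S6h libraries had at least 1 count of miR-200a-3p, against 2 of 6 in S24h and 5 of 6 in S72h. For miR-200b-3p, 11 of the 12 Control and S6h libraries and 8 of the 12 later libraries had a count. The corresponding numbers were 12 and 9 for miR-200c-3p, 8 and 1 for miR-429-3p and, with more in the later libraries, 4 and 5 for miR-141-3p. Since the S24h and S72h libraries were shallower, the expected number of libraries with a count was also computed with every library thinned to 63956 counts. Thinning left miR-200a-3p at 11.99 against 6.79 libraries, miR-200b-3p at 10.96 against 7.70, miR-200c-3p at 11.2 against 8.92 and miR-141-3p at 3.45 against 4.78.

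**Figure D3:**
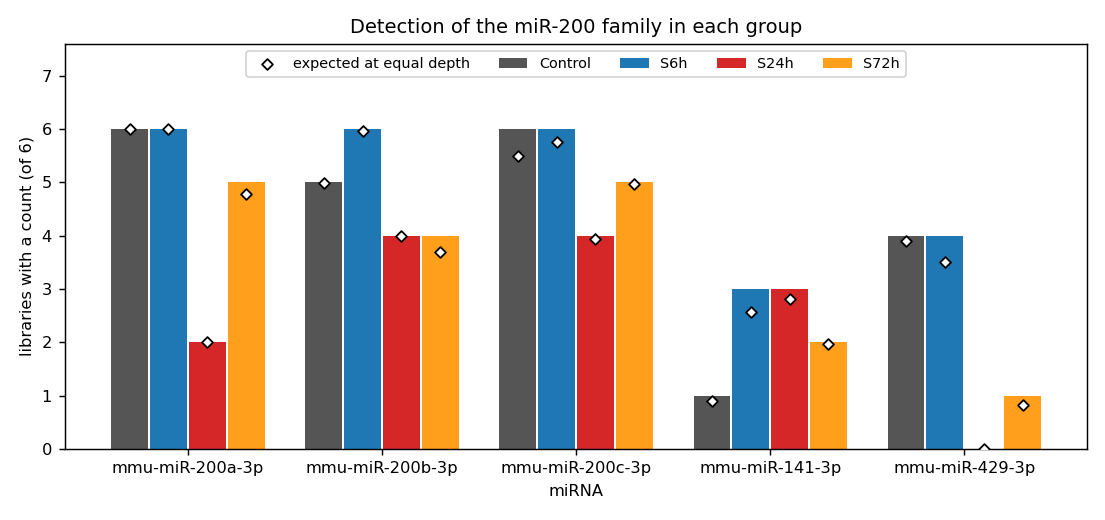
Number of libraries, of 6 per group, with at least 1 count of each member of the miR-200 family (bars), with diamonds for the number expected when every library is thinned to 63956 counts. In S24h, 2 libraries had a count of miR-200a-3p and 0 had a count of miR-429-3p, whereas 4 had a count of miR-200b-3p.

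Among the members with the seed of miR-200a, mmu-miR-200a-3p ranged from 15.6 to 645 CPM in Control (median 190), from 104 to 441 CPM in S6h (median 301), from 0 to 167 CPM in S24h (median 0) and from 0 to 209 CPM in S72h (median 35.9). Its S24h counts were 0 in replicates 1, 3, 4 and 5, 3 in replicate 2 and 24 in replicate 6, so that replicate 6 alone reached the range of S6h. The difference between S24h and S6h passed the test, with an 8.66-fold lower level in S24h (log2 fold change -3.11 ± 1.07, SE; edgeR adjusted p = 0.0403). Against Control, the S24h level was 7.14-fold lower without passing (log2 fold change -2.84 ± 1.06; edgeR adjusted p = 0.0636). Log2 fold changes of -1.58 ± 1.002 for S72h against Control (edgeR adjusted p = 0.413), -1.86 ± 1.01 for S72h against S6h (0.287) and 0.28 ± 0.97 for S6h against Control (0.991) did not pass either. The call for S24h against S6h was lost without any 1 of 9 libraries, S6h replicates 3, 4, 5 and 6 and S24h replicates 1 to 5. In these edgeR fits the log2 fold change was between -3.14 and -2.85 and the adjusted p between 0.0516 and 0.0882. Leaving out S24h replicate 6 gave a log2 fold change of -5.07 against S6h (adjusted p = 0.00322) and of -4.67 against Control, which then passed (adjusted p = 0.00877).

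With the same seed, miR-141-3p was close to the limit of detection. It had counts of 2 in 1 Control library, of 6, 8 and 20 in 3 S6h libraries, of 1, 2 and 9 in 3 S24h libraries and of 2 and 10 in 2 S72h libraries. The highest level, 88.3 CPM, was in S6h replicate 6, and the highest S24h and S72h libraries held 62.6 and 74.7 CPM. No order of the groups can be read from these counts, and in exact two-sided permutation tests of log2(CPM + 4) the unadjusted p ranged from 0.303 to 0.913 over the 6 comparisons. So few libraries had a count that the tests against Control could not have given a p under 0.05.

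In the other seed group, miR-200b-3p ranged from 0 to 461 CPM in Control (median 154), from 41.4 to 214 CPM in S6h (median 152), from 0 to 209 CPM in S24h (median 132) and from 0 to 202 CPM in S72h (median 62.3). The ranges overlapped almost completely, and 1 Control library, 2 S24h libraries and 2 S72h libraries had 0 counts. Its log2 fold changes were -0.94 ± 1.05 for S24h against Control (edgeR adjusted p = 0.614) and -0.65 ± 1.04 for S24h against S6h (0.739). At 72 h they were -1.14 ± 1.05 against Control (0.640) and -0.84 ± 1.05 against S6h (0.770). These standard errors of the differences are near 1 on the log2 scale, so that the 2.20-fold lower level at 72 h is an imprecise estimate. It did not pass the test.

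In Control, miR-200c-3p ranged from 7.68 to 241 CPM (median 161). It ranged from 20.2 to 127 CPM in S6h (median 96.3), from 0 to 117 CPM in S24h (median 37.7) and from 0 to 141 CPM in S72h (median 71.4). Although the Control median was the highest, 1 Control library had a single count and the ranges overlapped. The log2 fold changes against Control were -0.75 ± 0.96 for S6h (edgeR adjusted p = 0.991), -1.76 ± 1.002 for S24h (0.234) and -0.94 ± 0.98 for S72h (0.666). None passed the test.

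The third miRNA with this seed, miR-429-3p, was found in 8 of the 12 Control and S6h libraries and in 1 of the 12 later ones. Control libraries had counts of 9, 3, 0, 29, 6 and 0 in replicates 1 to 6, and S6h libraries had 2, 0, 0, 47, 3 and 36. All 6 S24h libraries had 0 counts, and S72h libraries had 0 counts but for 1 count in replicate 3. Pooled over each group, miR-429-3p was at 59.3 CPM in Control and 67.5 CPM in S6h, against 0 of 553960 counts in S24h, which allows up to 5.42 CPM over the group. S24h was thus at least 10.96-fold lower than Control and at least 12.5-fold lower than S6h in the pooled counts, with counting error only. Without Control replicate 4, which held 29 of the 47 Control counts, the limit against Control was at least 5.05-fold. The limit against S6h was at least 8.91-fold without S6h replicate 6 and at least 9.10-fold without S6h replicate 4. Spread between mice was not small beside this, because 2 Control libraries and 2 S6h libraries also had 0 counts. The exact two-sided permutation test of log2(CPM + 4) gave an unadjusted p of 0.0606 for S24h against Control and the same for S24h against S6h. With counts in only 4 libraries of each comparison, this is the smallest p the test can give, so that it could not fall under 0.05. In an edgeR fit without a filter on low counts, over 667 miRNAs, both comparisons passed (adjusted p = 0.0486 and 0.0489). Thinned to 63956 counts, 7.40 of the 12 Control and S6h libraries and 0.82 of the 12 later libraries would be expected to have a count.

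Within the chromosome 4 cluster, the balance of the neighbours miR-200a-3p and miR-200b-3p was compared by counts. The pooled counts were 180 and 145 in Control and 354 and 180 in S6h, with more miR-200a-3p in 4 of 6 and 5 of 6 libraries. In S24h they were 27 and 60, with more miR-200b-3p in 4 libraries, more miR-200a-3p in 1 and 0 of both in 1. Without S24h replicate 6 the S24h counts were 3 and 30. In S72h they were 65 and 52, with more miR-200a-3p in 3 libraries, more miR-200b-3p in 2 and 0 of both in 1. The cluster as a whole had a median of 336 CPM in Control, 517 CPM in S6h, 132 CPM in S24h and 133 CPM in S72h. The chromosome 6 pair had medians of 161, 115, 82.6 and 71.4 CPM in the same order. Grouped by seed instead, the miR-200a seed had medians of 201, 308, 20.1 and 48.7 CPM and the miR-200b seed 361, 306, 155 and 127 CPM.

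Outside the family, mmu-miR-203-3p ranged from 1064 to 3166 CPM in Control (median 1691), from 247 to 2004 CPM in S6h (median 1663), from 167 to 2115 CPM in S24h (median 416) and from 404 to 1151 CPM in S72h (median 834). The S24h libraries were split, with replicates 2 and 5 at 1938 and 2115 CPM and the other 4 between 167 and 472 CPM. The S72h libraries lay at or below 1151 CPM, above which 4 of the 6 Control libraries were found. Log2 fold changes against Control were -1.31 ± 0.51 for S24h (edgeR adjusted p = 0.0758) and -1.21 ± 0.51 for S72h (0.176), both under 0.05 before adjustment (0.0153 and 0.0236) and not past the threshold after it. The S24h difference passed without S24h replicate 2 (adjusted p = 0.0260) or replicate 5 (0.0243). Against S6h they were -0.91 ± 0.51 for S24h (0.231) and -0.81 ± 0.50 for S72h (0.393).

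The level of miR-205-5p overlapped between all 4 groups. It ranged from 603 to 2274 CPM in Control (median 1823), from 760 to 1681 CPM in S6h (median 996), from 705 to 3523 CPM in S24h (median 1040) and from 180 to 1269 CPM in S72h (median 1002). The highest library of all was S24h replicate 2 and the lowest S72h replicate 4, in which the liver miRNAs described below took 29.98% of the counts. The log2 fold changes were -0.48 ± 0.38 for S6h (edgeR adjusted p = 0.991), -0.27 ± 0.38 for S24h (0.705) and -0.90 ± 0.38 for S72h (0.176) against Control. Without S72h replicate 4 the last of these was -0.64 (0.382). S24h against S6h gave 0.21 ± 0.38 (0.749), which became -0.22 without S24h replicate 2, and the difference between S24h and Control became 0.06 without S24h replicate 6.

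Like miR-200a-3p, mmu-miR-375-3p had its highest median at 6 h. It ranged from 251 to 1110 CPM in Control (median 498), from 317 to 1443 CPM in S6h (median 981), from 153 to 590 CPM in S24h (median 236) and from 185 to 538 CPM in S72h (median 276). The S6h and S24h ranges overlapped through S6h replicates 2 and 3 and S24h replicate 1. The level was 3.88-fold lower in S24h than in S6h (log2 fold change -1.96 ± 0.48; edgeR adjusted p = 0.00360) and 2.83-fold lower in S72h than in S6h (-1.50 ± 0.47; edgeR adjusted p = 0.0365), and both differences passed the test. Neither Control comparison at these times passed, with -1.15 ± 0.47 for S24h (edgeR adjusted p = 0.0946) and -0.69 ± 0.47 for S72h (0.443). The S24h difference from Control passed without S24h replicate 1, the highest library of its group (log2 fold change -1.52; edgeR adjusted p = 0.0363). S6h against Control gave 0.81 ± 0.46 (0.991). The S24h call against S6h was kept with each library left out, with log2 fold changes between -2.33 and -1.80. The S72h call against S6h was lost without any 1 of S6h replicates 1, 4, 5 and 6 or S72h replicates 2, 3 and 5. In these edgeR fits the log2 fold change was between -1.52 and -1.35 and the adjusted p between 0.0528 and 0.108.

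**Figure D4:**
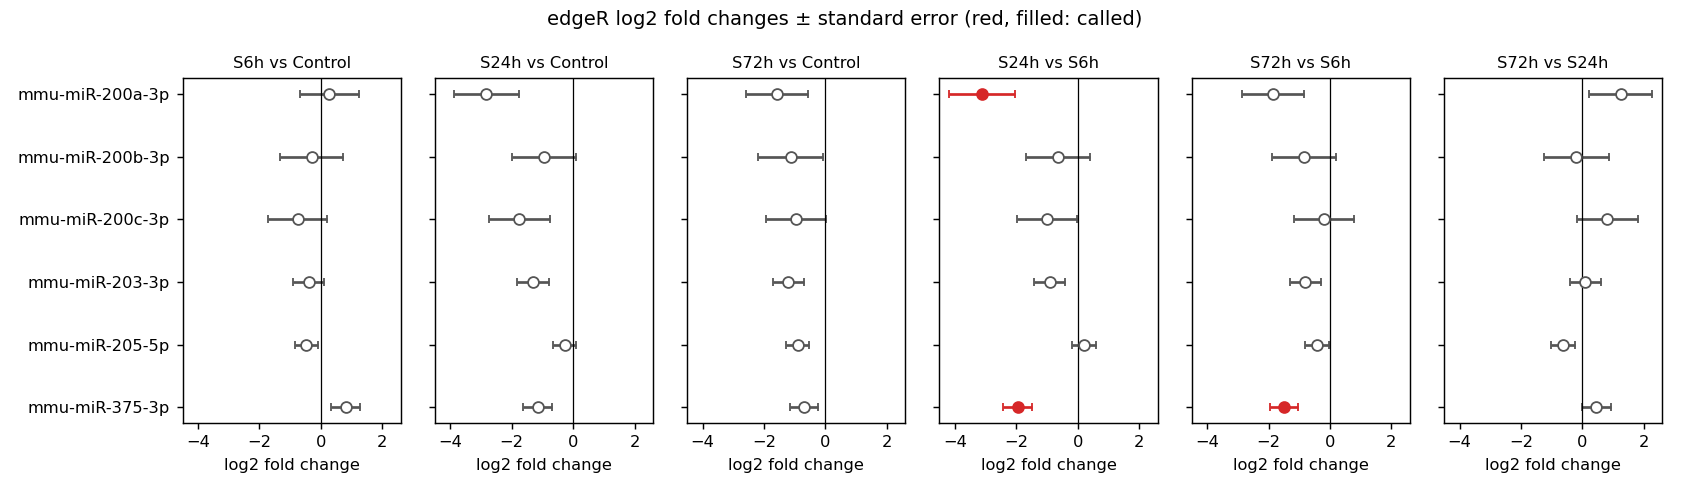
Log2 fold changes (edgeR) of the 6 tested miRNAs in the 6 comparisons of groups, with bars for ± 1 standard error; filled points passed the test (fold change of 1.5 or more with an adjusted p under 0.05). The called points are miR-200a-3p in S24h against S6h (-3.11) and miR-375-3p in S24h and S72h against S6h (-1.96 and -1.50).

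Counted over the 6 tested members, no member was called in S6h against Control, where 0% of all 252 tested miRNAs were called by edgeR and 0% by DESeq2. No member had an unadjusted p under 0.05 there (3.57% of all). In S24h against Control 0 members were called, against 11.9% of all miRNAs in either direction and 7.94% called lower. At an unadjusted p under 0.05 there were 3 (miR-200a-3p, miR-203-3p and miR-375-3p), against 29.4% of all. DESeq2 called 1 member, mmu-miR-200a-3p (log2 fold change -2.77, DESeq2 adjusted p = 0.0246), against 19.8% of all. In limma-voom 2 were called, miR-200a-3p and miR-203-3p, against 18.7% of all. S72h against Control gave 0 called members by edgeR and by DESeq2, where 3.57% and 8.33% of all were called and 1.59% of all were called lower by edgeR. DESeq2's own filter left 127 of the 252 miRNAs without an adjusted p in this comparison, among them miR-200a-3p, miR-200b-3p and miR-200c-3p, so that its 0 covers the other 3 members. There were 2 members (miR-203-3p and miR-205-5p) with an unadjusted p under 0.05, against 19% of all.

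Between S24h and S6h, 2 of the 6 members were called and both were lower in S24h, while 20.2% of all tested miRNAs were called and 13.9% were called lower. DESeq2 called 2 members and 22.6% of all, with no adjusted p for 64 other miRNAs, and 2 members and 29% of all had an unadjusted p under 0.05. Between S72h and S6h, 1 member was called, lower in S72h, against 9.92% of all and 5.56% called lower. DESeq2 called 1 member and 13.9% of all, with no adjusted p for 108 miRNAs, among them the same 3 members. By edgeR, 1 member and 21% of all had an unadjusted p under 0.05. S72h against S24h gave 0 called members by edgeR and by DESeq2, against 0.397% and 1.59% of all (0% called lower by edgeR), and 0 members with an unadjusted p under 0.05, against 11.5%. With so few members these counts do not set the 6 apart from the other miRNAs.

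The direction of the estimates is described in the same way. In S24h against Control all 6 tested members were below 0 (57.9% of all miRNAs) with a median log2 fold change of -1.23, against -0.21 over all. In S72h against Control 6 of 6 were below 0 (52% of all), with medians of -1.04 and -0.06. The counts were 5 of 6 for S24h against S6h (56.7% of all; medians -0.95 and -0.23), 6 of 6 for S72h against S6h (49.2%; -0.82 and 0.04), 4 of 6 for S6h against Control (51.6%; -0.35 and -0.02) and 2 of 6 for S72h against S24h (42.1%; 0.28 and 0.09). The comparisons share libraries, so that these counts are not independent of each other. In each comparison the ranges of the 2 groups overlapped for every tested member. Over all miRNAs, the first group lay wholly below the second for 4.37% in S24h against Control, 1.19% in S72h against Control, 7.14% in S24h against S6h, 1.19% in S72h against S6h and 0% in the other 2 comparisons.

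The opposite arms of the hairpins were too rare to add to these levels. All 10 opposite arms and miR-203 antisense products were in the table, none passed the filter, and 5 of them had 0 counts in every library. The most abundant, mmu-miR-200b-5p, had up to 14 counts in a library and was found in 10 libraries over the 4 groups. Counts of mmu-miR-200a-5p were limited to 3 S6h libraries, with 11 counts in all, and mmu-miR-205-3p had 20 counts over 4 S6h libraries, 3 in 1 Control library and 0 in S24h and S72h.

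Other miRNAs known from epithelial cells were examined beside the members, and 7 of the 11 listed passed the filter. Their summed level had a median of 11137 CPM in Control, 7497 CPM in S6h, 1691 CPM in S24h and 6422 CPM in S72h, most of it from the intestinal and hepatic miR-192-5p and miR-215-5p. The level of miR-215-5p was 15.8-fold lower in S24h than in Control (log2 fold change -3.98 ± 0.78; edgeR adjusted p = 0.000782) and 14.6-fold lower than in S6h (-3.87 ± 0.78; edgeR adjusted p = 0.000491). In S72h against S6h, miR-182-5p, a miRNA of sensory and other epithelia, was lower (-4.53 ± 1.45; edgeR adjusted p = 0.0400). In that comparison 9.92% of all tested miRNAs were called. The S72h libraries held only 4 counts of miR-182-5p, in 2 libraries and at most 3 in a library, so that this estimate lies near the limit of detection. Neither miR-183-5p, which is encoded beside miR-182-5p, nor miR-31-5p, miR-184-3p, miR-192-5p or miR-194-5p was called in any comparison. The median log2 fold change of the 7 was -1.71 in S24h against Control and -0.50 in S72h against Control.

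Marker miRNAs of other cell types that release vesicles or RNA into serum also differed between groups. Summed erythroid miRNAs ranged from 104309 to 190543 CPM in Control and from 29828 to 122463 CPM in S24h, and 3 of the 6 tested (miR-451a, miR-486a-5p and miR-486b-5p) were called lower there, against 7.94% of all tested miRNAs. In S6h they ranged from 73130 to 124588 CPM and in S72h from 42219 to 171005 CPM. Summed skeletal muscle miRNAs ranged from 34151 to 90196 CPM in Control, 60182 to 265491 CPM in S6h, 15682 to 43550 CPM in S24h and 6442 to 237383 CPM in S72h, and 3 of the 5 tested were called lower in S24h than in S6h, against 13.9% of all tested miRNAs. Leukocyte and platelet miRNAs overlapped widely, with medians of 14298, 13621, 16316 and 15177 CPM in Control, S6h, S24h and S72h, and of the 6 tested 1 was called higher and 1 lower in S24h than in S6h, where 20.2% of all were called in either direction. The pancreatic list had medians of 1172, 919, 559 and 913 CPM, nearly all from miR-7a-5p, the 1 tested member, which was not called. Of the liver list, miR-122-5p was tested and was not called with all libraries in the fit. The summed list ranged from 3706 to 160092 CPM in Control (median 68536), 2214 to 28328 CPM in S6h (median 13174), 7892 to 52209 CPM in S24h (median 18523) and 4768 to 299754 CPM in S72h (median 8064), where the highest library was replicate 4. Log2 fold changes of miR-122-5p were -2.64 ± 1.01 for S6h (edgeR adjusted p = 0.991), -1.98 ± 0.99 for S24h (0.176) and 0.11 ± 0.95 for S72h (0.975) against Control, and 2.75 ± 1.02 for S72h against S6h (0.0780). Both S72h estimates rested on S72h replicate 4, without which they were -3.37 against Control, which then passed (edgeR adjusted p = 0.0233), and -0.91 against S6h (0.568). The part of any of these cell types in the levels of the 8 miRNAs was not tested.

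Across the 24 libraries, the members followed each other only loosely. Over the 15 pairs of tested members, Spearman's correlation of log2(TMM CPM + 4) had a median of 0.28, from -0.31 (miR-200b-3p with miR-205-5p) to 0.59, against a median of 0.02 over all pairs of tested miRNAs. The highest values were those of miR-200a-3p with miR-203-3p and with its neighbour miR-200b-3p. These correlations are over libraries that share group differences and depth, and are given without a p. The 2 other tested miRNAs closest to miR-200a-3p were miR-22-3p (0.85) and miR-27b-3p (0.83), and those closest to miR-375-3p were miR-215-5p (0.85) and miR-16-5p (0.78). Closest to miR-200b-3p were miR-22-3p (0.66) and miR-194-5p (0.63), and to miR-200c-3p miR-194-5p (0.72) and miR-215-3p (0.69). For miR-203-3p they were miR-143-3p (0.68) and miR-144-3p (0.65), and for miR-205-5p miR-615-3p (0.64) and miR-127-3p (0.59). The level of miR-22-3p had medians of 8659 CPM in Control, 9745 CPM in S6h, 3322 CPM in S24h and 3456 CPM in S72h, far above that of miR-200a-3p.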

How the data were processed

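The deposited table holds whole-number read counts per mature miRNA, without normalization. To make it, the authors removed adapters (cutadapt), mapped the reads onto GRCm38 (Bowtie), kept those of 20 to 24 bases and counted them with featureCounts on miRBase. No collapse of PCR copies is described, so that counts are reads and not molecules, and close family members can share reads. Libraries were assigned to Control, S6h, S24h and S72h by their labels, and the 6 libraries of a group are separate mice.

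The tools were edgeR 4.0.16, DESeq2 1.42.0 and limma 3.58.1 under R 4.3.3, beside Python 3.11.15. miRNAs with at least 10 CPM in at least 12 of 24 libraries were tested, 252 of the 667 with a count. After TMM scaling, 1 edgeR quasi-likelihood model was fitted to the 4 groups, and calls required a fold change of 1.5 or more and an adjusted p under 0.05 (Benjamini-Hochberg, over all tested miRNAs). Exact two-sided permutation tests used all 924 divisions of 12 libraries, with a smallest p of 0.00216, or a higher one where many libraries had 0 counts. Alternatives concerned the test, pseudocount, fold rule, scaling, filter, libraries in the model, dispersion, a replicate block and leaving out each library.

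The 8 members and the lists (opposite arms, other epithelial, erythroid, skeletal muscle, liver, leukocyte and platelet, pancreas) were chosen with earlier results of these data known. Named miRNAs are the members, list members and, per tested member, the 2 other tested miRNAs with the highest Spearman correlation.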

Additional observations from a re-analysis of the deposited data

Results flagged for a closer look

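Among 31 combinations of a miRNA and a group with values that differed, 5 held a library that stood apart from the others of its group. The measure is the gap to the nearest library as a share of the range of the group, both on log2(CPM + 4). In Control, miR-200c-3p was lowest in replicate 5 (gap 0.641), which held 1 count against 5 to 52 in the others. In S72h it was lowest in replicate 2 (gap 0.720), with 0 counts. The gap was 1 for miR-141-3p in Control replicate 3, with 2 counts, and for miR-429-3p in S72h replicate 3, with 1 count, since the other 5 libraries of each group had 0, so that any count there gives this gap. Chance alone would be expected to mark about 1 in 20 groups of untied values. That share depends on how the values are distributed and is only a rough guide for low counts. Of the 31 combinations, 20 had at most 1 library at 0 and 3 of these were marked, and for the 11 with more libraries at 0 that share does not apply. In S6h, miR-203-3p was lowest in replicate 2 (gap 0.709), at 247 CPM against 1093 to 2004 CPM in the others. The choice of libraries depends on the scale: on CPM, an alternative added after seeing the data, 6 of the 31 combinations stood apart, the highest library in each case. These were miR-141-3p in Control replicate 3 and miR-429-3p in S72h replicate 3 (gap 1 each, as on the log scale), and miR-200a-3p in S24h replicate 6 (0.756), miR-141-3p in S72h replicate 6 (0.657), miR-429-3p in Control replicate 4 (0.783) and miR-375-3p in S24h replicate 1 (0.699).

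The levels of 2 members differed between time points after surgery, by the edgeR test of the difference between the surgery groups. This was the case for miR-200a-3p between 24 h and 6 h (log2 difference -3.11) and for miR-375-3p between 24 h and 6 h (-1.96) and between 72 h and 6 h (-1.50). None of these surgery groups differed from Control past the threshold for the same miRNA (edgeR adjusted p = 0.991 in S6h for both, 0.0636 in S24h for miR-200a-3p, and 0.0946 in S24h and 0.443 in S72h for miR-375-3p). The S6h and later mice differ in time, in the number of analgesic doses and possibly in the batch of animals, which cannot be told apart.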

How the results depend on the processing

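The number of members called in S24h against S6h (2) was 1 with a test of a fold change above 1.5 (9.13% of all miRNAs called), with RLE scaling (17.1%), with upper quartile scaling (17.1%) and with column totals only (14.7%), where miR-200a-3p lost its call in each case, 3 without a filter (6.75%) and with a filter of 10 CPM in 6 libraries (17.3%), where miR-429-3p was added, and 1 to 2 with single libraries left out. In S24h against Control (0) it was 1 with DESeq2 (19.8% of all), 2 with limma-voom (18.7%), 1 without a filter (5.7%) and 1 with the filter of 10 CPM in 6 libraries (11.1%), which was miR-429-3p in the last 2 settings, and 0 to 1 with single libraries left out. In S72h against S6h (1) it was 0 with limma-voom (15.1% of all), both permutation tests (0%), the test of a fold change above 1.5 (0.794%), upper quartile scaling (11.5%) and no filter (3.45%), and 0 to 1 with single libraries left out. The other 3 comparisons had 0 called members in every setting, with 3 members left without an adjusted p by DESeq2 in S72h against Control. For miR-375-3p in S24h against S6h the call held in 13 of 13 settings and in 24 of 24 fits with a library left out. For miR-200a-3p in that comparison, the log2 fold change was between -3.11 and -2.75 in the fold test and scaling settings that lost the call.

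Signs changed only in estimates that were not called. For miR-200b-3p in S6h against Control (-0.30) the log2 difference was 0.17 with limma-voom, 0.48 and 0.80 in permutation tests with pseudocounts of 4 and 1 and 0.57 with a replicate block, and -0.55 to 0.15 with a library left out. For miR-205-5p in S24h against Control (-0.27) it was 0.0064 with upper quartile scaling and -0.70 to 0.059 with a library left out, and in S24h against S6h -0.22 to 0.37. For miR-200c-3p in S72h against S6h the range was -0.53 to 0.067 and for miR-200b-3p in S72h against S24h -0.74 to 0.064. For miR-203-3p in S72h against S24h (0.10) it was -0.062 with DESeq2, -0.060 with RLE scaling, -0.15 with column totals, -0.025 with only the 2 groups and -0.25 to 0.58 with a library left out. The causes were not tested. Of 462 estimates under the other settings, leaving out 6 without an adjusted p in DESeq2, 440 kept direction and side of the threshold, and of 864 with a library left out 831 did.

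Replicate numbers did not pair the samples: deviations of same-numbered libraries correlated between -0.25 and 0.15, above 0.1 in 6 of 36 pairs. A replicate block left 2 members called in S24h against S6h and 1 in S72h against S6h, and changed no other count of members.

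Over all miRNAs tested, whose number changed with the filter (667 without one), calls ranged with the setting from 11 to 50 in S24h against Control, 0 to 21 in S72h against Control, 23 to 66 in S24h against S6h, 0 to 38 in S72h against S6h, 0 to 10 in S72h against S24h and 0 to 2 in S6h against Control, where the 10 and the 2 were reached without a filter. The low counts of the miR-200 family limit its comparisons: 1 count was worth up to 15.6 CPM, and standard errors of miR-200a-3p, miR-200b-3p and miR-200c-3p were near 1 on the log2 scale.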
